A study of Mus musculus with 4 samples.

Results

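The genes described here carry glucose into the cell and through glycolysis to lactate: the glucose transporter genes Slc2a1 and Slc2a3, the hexokinase genes Hk1 and Hk2, the phosphofructokinase genes Pfkl and Pfkp, the later enzyme genes Pgk1, Eno1 and Ldha, and the lactate exporter gene Slc16a3. They were chosen by name, for their place in the pathway, and all 10 of them were found among the 23312 genes listed for each library. RNA was sequenced from B220+CD43+ cells sorted from the bone marrow of C57BL/6 mice. The labels call them pro-B cells, early cells of the B lineage, but markers of plasmacytoid dendritic cells were more abundant in each library than pro-B cell markers. All mice carried RERTCre, a Cre recombinase that tamoxifen activates in many cell types, so that deletion was not limited by design to B cells. All received 1 mg tamoxifen on days 1, 2, 4 and 7 before analysis on day 10. The groups were 2 libraries of Cnot3 fl/fl mice, whose Cnot3 alleles are flanked by loxP sites, and 2 of Cnot3 +/+ mice, described by the submitters as individual replicates, with no ages given in the labels. The product of Cnot3 belongs to the CCR4-NOT complex, which shortens the poly(A) tails of mRNAs, and the comparison asks which transcripts differ once the gene has been targeted.

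Glycolysis splits glucose into pyruvate in the cytosol and yields ATP without oxygen. Facilitative transporters bring glucose in, hexokinases trap it as glucose 6-phosphate, and phosphofructokinase commits it to the pathway, which makes these the steps at which the flux is mainly controlled. Lactate dehydrogenase regenerates the cofactor NAD, and monocarboxylate transporters carry the lactate out. Early B-cell precursors that divide in response to interleukin-7 are known for a high use of glucose, and several of the genes are targets of the transcription factors HIF and MYC.

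In the libraries labelled Cnot3 fl/fl, 3 of the 10 genes were higher than in Cnot3 +/+ libraries, none were lower and 7 did not pass the test (limma, adjusted p under 0.05 over 11017 genes). The 3 were Pfkl, Pfkp and Hk2, with ratios of mean FPKM between 1.51 and 1.79, whereas Hk1, of the same step as Hk2, did not pass. FPKM divides the fragments of a transcript by its length and by the mapped total, so that levels of different genes share a scale. Levels are uncertain where a transcript shares long stretches with other genes, as described below for Pgk1 and Eno1. Among all genes tested, 6.22% were called higher and 3.28% lower, 9.49% in all. The authors' deposited table marked Hk2 and Pfkl as significantly higher and none of the 10 genes as lower, where it marked 4.08% of its 12154 tested genes as higher and 2.51% as lower. At an unadjusted limma p under 0.05, 5 of the 10 were higher and 2 lower, beside 33.8% of all genes in either direction. The median log2 fold change of the 10 genes was 0.31, beside -0.01 over all genes tested and -0.05 over 14 other glycolytic enzymes tested. Values of the 10 genes ranged from -0.68 for Eno1 to 0.76 for Slc16a3. Leaving out any of the 4 libraries, which leaves a genotype with a single library assumed to vary like the others, ended the 3 calls, with 0 of the 10 genes called and 4 to 6 of them at an unadjusted p under 0.05, as were 18.7% to 30.4% of all genes in these fits.

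**Figure D1:**
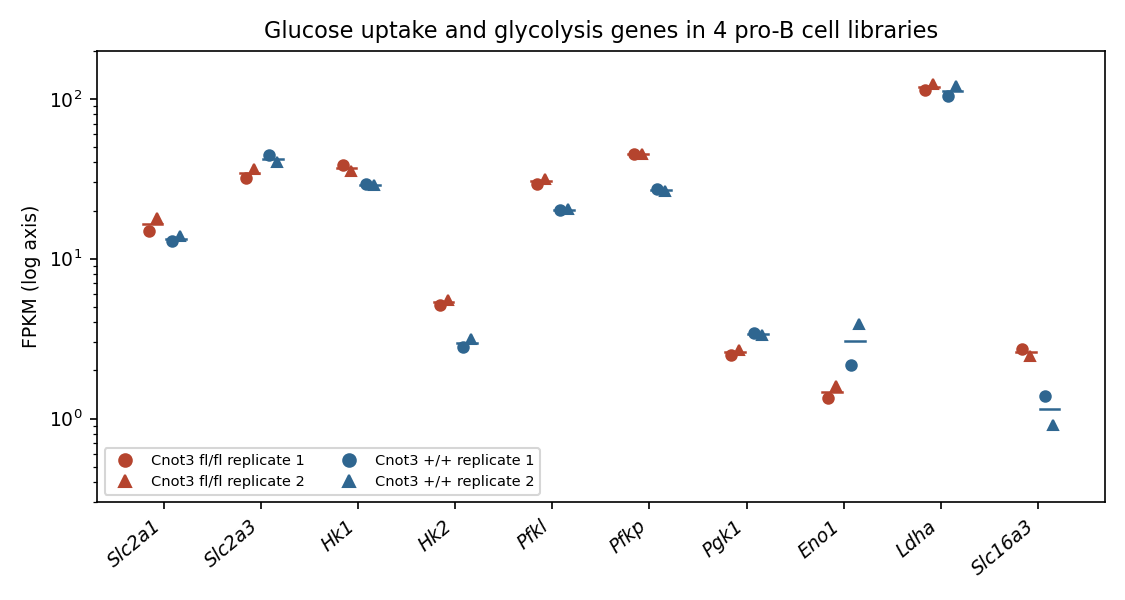
FPKM (log axis) of the 10 genes in each library, with Cnot3 fl/fl in red and Cnot3 +/+ in blue, circles for replicate 1, triangles for replicate 2 and a bar at each genotype's mean. Hk2, Pfkl and Pfkp sit higher in both Cnot3 fl/fl libraries, Ldha overlaps between the genotypes at above 100 FPKM, and Pgk1, Eno1 and Slc16a3 lie under 4 FPKM in all 4 libraries.

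Cnot3 itself was at 39.0 and 40.3 FPKM for Cnot3 fl/fl against 41.6 and 39.3 FPKM for Cnot3 +/+ libraries. Such a whole-gene value cannot check a deletion of part of the gene, and the labels do not name the deleted part, so directions are those between libraries as labelled. Each library listed 14684 to 15126 genes above 0 FPKM, and the depth is unknown, since the files hold no counts. Cnot3 +/+ replicate 1 had Y-linked transcripts and Xist at 0.0242 FPKM, against 54.3 to 63.1 FPKM in the other 3 libraries.

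The markers of the labelled cell type were present, but those of another cell type were far more abundant. The 11 pro-B cell markers summed to 748 and 745 FPKM for Cnot3 fl/fl against 922 and 1237 FPKM for Cnot3 +/+ replicates 1 and 2. Of the 11, limma called 5 lower in Cnot3 fl/fl, with Cd79a, Pax5, Vpreb1 and Igll1 among them, and 0 higher. The other 6 were not called, and by sign 9 of the 11 fold changes were negative and 2 positive. The 2 were Dntt, at 243.8 and 254.7 against 215.9 and 217.3 FPKM, and Blnk, at 174.8 and 180.8 against 162.2 and 180.7 FPKM. The 12 markers of plasmacytoid dendritic cells, which also carry B220, summed to 6527 and 7800 against 7664 and 7680 FPKM, with Tlr7 called higher and Cox6a2 lower. Of 5 tested classical dendritic markers, Zbtb46 and Clec9a were higher and Clec10a lower, with the list of 7 summing to at most 327 FPKM in a library, and Xcr1 at most at 0.150 FPKM. The 9 neutrophil and monocyte markers found summed to 226 and 157 against 142 and 197 FPKM, and 3 of them (Elane, Ctsg and Itgam) were higher. T and NK cell markers summed to 581 and 450.2 against 521 and 342 FPKM and erythroid markers to 22.0 and 40.1 against 28.7 and 63.8 FPKM, with none called in limma. Markers of dividing cells summed to 108 and 79.8 in Cnot3 fl/fl and to 78.0 and 216 FPKM in Cnot3 +/+ replicates 1 and 2, with 0 of 8 called, so that Cnot3 +/+ replicate 2 stood apart. None of the markers found was at 0 in any library. The part of these cell types in the results on glycolysis was not tested, and in bulk samples fewer cells of a type and less RNA per cell cannot be told apart.

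The promoters of the 3 genes that were higher are shown to let a reader see the stretch of DNA upstream of each. They are the 250 bases before the annotated start in RefSeq on GRCm38.p6, 5′ to 3′ on the gene's strand, whereas the expression files use mm9. Capitals mark the letters ACGTG or GCGTG on either strand, the core that HIF binds, and any CACGTG, the E-box that MYC binds, which contains ACGTG.
Hk2, chr6:82774455-82774704, minus strand: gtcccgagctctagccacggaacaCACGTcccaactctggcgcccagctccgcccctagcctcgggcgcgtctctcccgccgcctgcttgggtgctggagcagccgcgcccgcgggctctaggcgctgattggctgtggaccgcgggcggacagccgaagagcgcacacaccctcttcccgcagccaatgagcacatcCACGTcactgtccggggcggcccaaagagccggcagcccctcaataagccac
Pfkl, chr10:78009808-78010057, minus strand: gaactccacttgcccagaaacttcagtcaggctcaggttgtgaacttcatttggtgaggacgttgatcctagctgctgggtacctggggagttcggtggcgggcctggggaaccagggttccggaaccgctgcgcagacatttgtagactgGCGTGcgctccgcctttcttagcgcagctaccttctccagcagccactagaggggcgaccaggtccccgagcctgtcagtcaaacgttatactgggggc
Pfkp, chr13:6648772-6649021, minus strand: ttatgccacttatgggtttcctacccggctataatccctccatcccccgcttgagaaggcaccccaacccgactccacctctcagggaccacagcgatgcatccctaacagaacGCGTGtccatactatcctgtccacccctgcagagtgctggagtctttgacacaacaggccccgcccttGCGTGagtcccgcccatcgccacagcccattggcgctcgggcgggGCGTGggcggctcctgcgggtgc
The HIF core matched at 2 places upstream of Hk2, at 1 upstream of Pfkl and at 3 upstream of Pfkp. Promoters of 9 of the 10 genes were found, 13 in all since some genes have several starts, and 12 of the 13 held a core, beside 38.6% of all 32851 promoters of the same length. CACGTG occurred in 1 of the 13, a promoter of Ldha, and in 6.02% of all promoters, and the GC box GGGCGG on either strand in 8 of the 13 and in 32.7% of all. For that Ldha promoter, unlike the others, bases soon after the start were not found toward the 5′ end of a GENCODE M21 transcript of the gene. A pair of the Eno1 stretches start 27 bases apart and hold the same 2 HIF core matches, with 2 and 3 matches of the GC box. The 13 stretches were 49.6% to 73.6% G or C (median 62.8%), beside a median of 52.4% over all promoters, and the part of base composition in these counts was not tested. A match is a description of the letters and not a binding site.

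Glucose uptake did not show a call in either direction. Slc2a1, which encodes GLUT1, the transporter of basal glucose uptake, was at 14.9 and 17.9 FPKM for Cnot3 fl/fl against 12.8 and 13.8 FPKM for Cnot3 +/+ libraries, so both Cnot3 fl/fl libraries were the higher ones. Its log2 fold change on the log2(FPKM + 1) scale was 0.28 (95% interval -0.03 to 0.58; adjusted p = 0.17 by limma). Slc2a3, which encodes GLUT3, a transporter of high affinity, went the other way, at 32.1 and 36.6 against 44.4 and 40.1 FPKM, without overlap. The log2 fold change of Slc2a3 was -0.29 (95% interval -0.56 to -0.02; adjusted p = 0.13 by limma). Per kilobase, Slc2a3 was the more abundant of the pair in each library, and the sum of both ran from 47.0 to 57.3 FPKM with the genotypes overlapping. Slc2a1 made up 31.8% and 32.9% of that sum in Cnot3 fl/fl and 22.4% and 25.6% in Cnot3 +/+ libraries. In an exact two-sided permutation test this difference of 8.33 percentage points had p = 0.333, the smallest that 2 against 2 libraries can give. The same p held for each of the other 5 isoform shares computed, and for all 6 after Benjamini-Hochberg adjustment, so none of them can pass.

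Among the hexokinases, Hk2 was called and the more abundant Hk1 was not. Hk2, the inducible form, was at 5.16 and 5.53 FPKM for Cnot3 fl/fl against 2.81 and 3.16 FPKM for Cnot3 +/+ libraries. Hk2 rose from 2.99 ± 0.244 to 5.34 ± 0.259 FPKM (SD, n = 2 per genotype), a log2 fold change of 0.67, standard error 0.12 (adjusted p = 0.043 by limma). Without 1 library at a time its log2 fold change stayed between 0.61 and 0.73, with limma adjusted p between 0.095 and 0.24. The authors' deposited table gave Hk2 a q-value of 0.028. In the files' mm9 locus column the gene lies on chromosome 6 from 82675020 to 82724448 (the sources used here do not say whether a start is counted from 0 or 1).

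Hk1, the constitutive hexokinase, was at 38.8 and 35.5 against 29.2 and 28.8 FPKM, also without overlap, but its adjusted p was 0.064 (limma; log2 fold change 0.35, 95% interval 0.13 to 0.56). With Hk3, another form at 0.753 to 1.86 FPKM, the hexokinases summed to 45.8 and 42.3 FPKM for Cnot3 fl/fl against 32.9 and 32.8 FPKM for Cnot3 +/+ libraries. Hk1 carried most of this sum in each library. Hk2 made up 11.3% and 13.1% of it in Cnot3 fl/fl and 8.56% and 9.65% in Cnot3 +/+ libraries (exact permutation p = 0.333).

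Both phosphofructokinase genes rose, and the groups did not overlap for either. Pfkp, the platelet form, was at 45.3 and 45.1 FPKM for Cnot3 fl/fl against 27.5 and 26.7 FPKM for Cnot3 +/+ libraries. Pfkp rose 1.67-fold, from 27.1 ± 0.553 to 45.2 ± 0.127 FPKM (SD, n = 2 per genotype; log2 fold change 0.72, standard error 0.07, adjusted p = 0.025 by limma). Libraries of a genotype thus lay close together, with a gap between the genotypes far wider than the spread within them. In the authors' deposited table Pfkp had a q-value of 0.062 and was not significant. Without 1 library at a time the log2 fold change of Pfkp was 0.70 to 0.74, with limma adjusted p between 0.069 and 0.21.

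Pfkl, the liver form, was at 29.5 and 31.7 FPKM for Cnot3 fl/fl against 20.05 and 20.54 FPKM for Cnot3 +/+ libraries. It rose 1.51-fold, from 20.3 ± 0.346 to 30.6 ± 1.56 FPKM (SD, n = 2 per genotype; log2 fold change 0.57, standard error 0.08, adjusted p = 0.037 by limma), and its q-value in the authors' deposited table was 0.048. Leaving out 1 library at a time gave 0.52 to 0.62, with limma adjusted p between 0.083 and 0.22. The muscle form Pfkm was at 8.39 and 7.86 against 6.08 and 5.63 FPKM (log2 fold change 0.41, adjusted p = 0.071 by limma), so all 3 forms were higher in both Cnot3 fl/fl libraries. Their sum was 83.2 and 84.7 FPKM for Cnot3 fl/fl against 53.6 and 52.8 FPKM for Cnot3 +/+ libraries. Pfkp was the most abundant form in each library, at 54.4% and 53.3% of the sum against 51.2% and 50.5% (exact permutation p = 0.333).

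Pfkp overlaps a neighbour, and nothing in the sources used here says whether strand was used in the authors' processing. In GENCODE M21, 748 bases of its longest coding transcript, 18.0% of it, are also part of Pitrm1, a mitochondrial peptidase gene on the opposite strand. In the files both genes have the same mm9 locus, chromosome 13 from 6547402 to 6647970. Pitrm1 was at 24.3 and 25.3 FPKM for Cnot3 fl/fl against 24.4 and 26.1 FPKM for Cnot3 +/+ libraries, a log2 difference of -0.02 (adjusted p = 0.85 by limma). The part of the overlap in the values of Pfkp was not tested. Pfkl lies on chromosome 10 from 77449693 to 77472541 in the files' mm9 locus column.

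**Figure D2:**
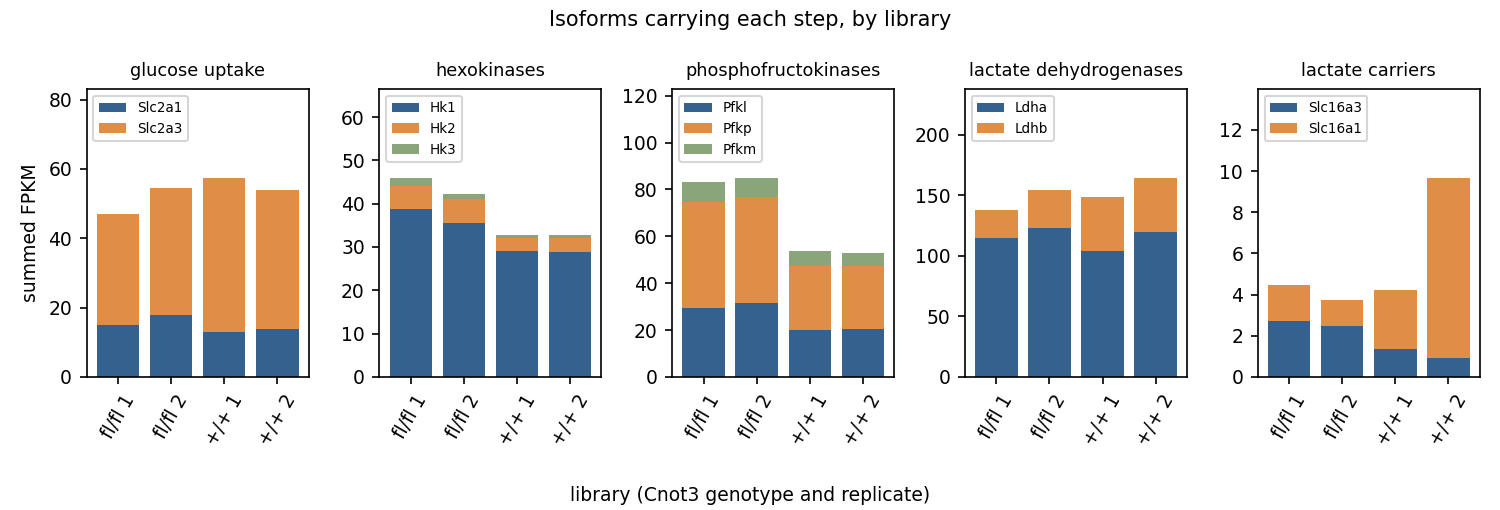
Summed FPKM of the isoforms of 5 steps in each library, stacked by gene, with the genotype and replicate on the x axis and a separate linear y axis per panel. The phosphofructokinase bars reach 83.2 and 84.7 FPKM for Cnot3 fl/fl against 53.6 and 52.8 FPKM for Cnot3 +/+ libraries, whereas the bars for uptake and lactate dehydrogenase overlap between the genotypes.

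Of the later enzymes, Ldha, which turns pyruvate into lactate, was the most abundant of the 10 genes and did not separate the genotypes. Ldha was at 114 and 123 FPKM for Cnot3 fl/fl against 104 and 119.9 FPKM for Cnot3 +/+ libraries, which overlap. Its log2 fold change was 0.09 (95% interval -0.19 to 0.37; adjusted p = 0.59 by limma), and -0.015 without Cnot3 +/+ replicate 1. Its partner Ldhb, the form more common in oxidative tissue, was at 23.7 and 31.0 against 45.0 and 44.0 FPKM (log2 fold change -0.70, adjusted p = 0.052 by limma; q-value 0.032 in the authors' deposited table). Ldha therefore made up 82.9% and 79.9% of both forms in Cnot3 fl/fl and 69.7% and 73.1% in Cnot3 +/+ libraries, a difference of 9.95 percentage points (exact permutation p = 0.333).

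Pgk1 and Eno1 were listed at levels far below those of the enzymes around them. Pgk1, the phosphoglycerate kinase gene on the X chromosome, was at 2.51 and 2.69 FPKM for Cnot3 fl/fl against 3.41 and 3.34 FPKM for Cnot3 +/+ libraries (log2 fold change -0.28, 95% interval -0.60 to 0.04; adjusted p = 0.19 by limma). Both Cnot3 fl/fl libraries were the lower ones, and the 2 Cnot3 +/+ libraries, of which only replicate 1 has Y-linked transcripts, lay close to each other. The part of the sex of the mice in the values of Pgk1 was not tested. Eno1, the ubiquitous enolase gene, was at 1.34 and 1.60 against 2.16 and 3.92 FPKM (log2 fold change -0.68, 95% interval -1.34 to -0.01; adjusted p = 0.14 by limma). Without Cnot3 +/+ replicate 2, the highest library, the log2 fold change of Eno1 was -0.36. In the same libraries the muscle enolase Eno3 stood at 17.8 to 24.4 FPKM. As listed, Eno1 made up 5.14% and 6.09% of the summed FPKM of Eno1, Eno2 and Eno3 in Cnot3 fl/fl and 10.8% and 17.8% in Cnot3 +/+ libraries (exact permutation p = 0.333). These shares are as uncertain as the level of Eno1.

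Both transcripts share long stretches with other genes. In GENCODE M21 (GRCm38), 85.6% of the bases of the longest coding Eno1 transcript and 68.8% of those of Pgk1 lay in stretches of at least 50 bases that other genes share at 99% identity or more. The closest copy of Pgk1 was the processed pseudogene Pgk1-rs7, identical over 1255 bases, and that of Eno1 was the processed pseudogene Gm4735, with 99.6% identity over 1302 bases. The authors' deposited table also joins Eno1 with a second gene, Gm5506. For Ldha no stretch reached 99%, although 55.0% of its bases were shared at 95% or more.

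Across the 10 genes and 14 other glycolytic enzymes tested, 4 had at least 40% of their transcript shared at 99% identity, namely Eno1, Pgk1, Gapdh and Pgam1 (these limits, and the naming of the last 2, were chosen after the values were seen). These 4 averaged 2.25 to 3.12 FPKM over the 4 libraries, although Gapdh is among the most abundant mRNAs of most cells. The other 20 had at most 18.0% of their bases shared and averaged 1.19 to 128 FPKM, and 3 of them, Hk2, Slc16a3 and Hk3, were under 5 FPKM. At a limit of 95% identity 8 of the 24 genes had at least 40% shared. The added 4, Ldha, Ldhb, Gpi1 and Pkm, with 55.0% to 76.8% shared at 95%, averaged 35.9 to 115 FPKM. The sources used here do not say how fragments that match several places were treated, and the part of this treatment in these values was not tested. The levels and differences of Pgk1 and Eno1 are therefore uncertain.

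**Figure D3:**
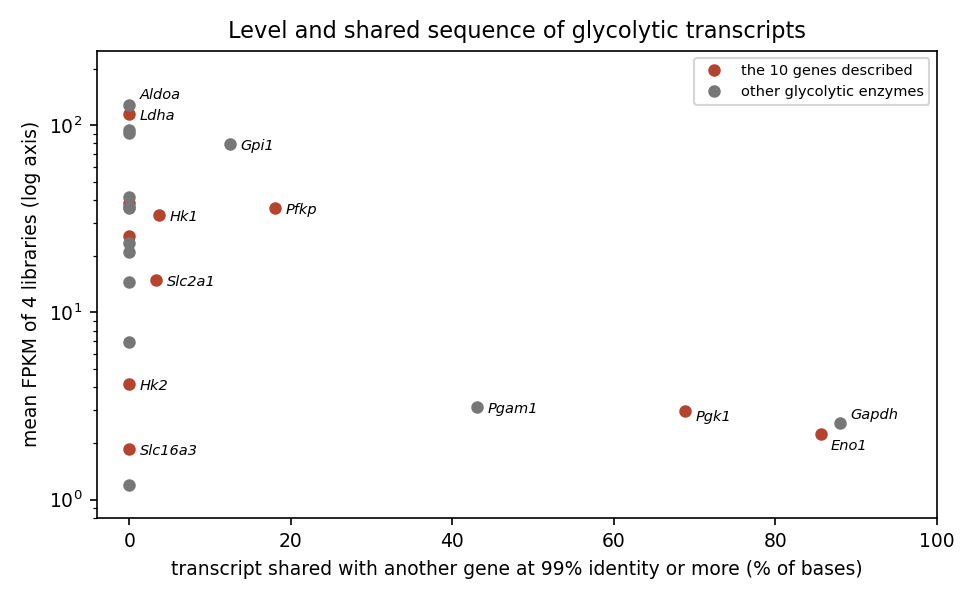
Mean FPKM over the 4 libraries (log axis) against the percentage of a gene's longest coding transcript that other genes share at 99% identity or more, for the 10 genes (red) and 14 other glycolytic enzymes (grey). Pgam1, Pgk1, Eno1 and Gapdh, with 43.1% to 88.0% shared, lie between 2.25 and 3.12 FPKM.

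Slc16a3, which encodes the lactate exporter MCT4 of strongly glycolytic cells, had the lowest mean of the 10 genes over the 4 libraries. It was at 2.74 and 2.47 FPKM for Cnot3 fl/fl against 1.37 and 0.912 FPKM for Cnot3 +/+ libraries, without overlap. Its ratio of means, 2.28, exceeded that of each of the other 9 genes, but the test was not passed (log2 fold change 0.76, 95% interval 0.29 to 1.22; adjusted p = 0.064 by limma, and q-value 0.057 in the authors' deposited table). On the log2(FPKM + 1) scale the change of a gene at this level is understated. Slc16a1, which encodes MCT1, a carrier that takes lactate in either direction, ran opposite, at 1.75 and 1.27 FPKM for Cnot3 fl/fl against 2.86 and 8.73 FPKM for Cnot3 +/+ replicates 1 and 2 (adjusted p = 0.13 by limma; q-value 0.0022 in the authors' deposited table). Slc16a3 thus made up 61.1% and 66.0% of the pair in Cnot3 fl/fl and 32.4% and 9.45% in Cnot3 +/+ libraries (exact permutation p = 0.333). Bsg, the chaperone that brings both carriers to the membrane, fell from 174 ± 2.09 to 127 ± 5.30 FPKM (SD, n = 2 per genotype; log2 fold change -0.45, adjusted p = 0.043 by limma; q-value 0.16 in the authors' deposited table).

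By direction alone, both Cnot3 fl/fl libraries were above both Cnot3 +/+ libraries for 6 of the 10 genes and below them for 3, with Ldha the exception. The same held for 32.7% and 31.7% of all genes tested, 64.4% together. Within Cnot3 fl/fl libraries the level fell from Ldha through Pfkp, Hk1, Slc2a3, Pfkl, Slc2a1 and Hk2 to the 3 genes under 4 FPKM, and Hk1 overlapped with Slc2a3, as did Pgk1 with Slc16a3. In Cnot3 +/+ libraries Slc2a3 came next after Ldha, ahead of Hk1 and Pfkp, and among the low genes Eno1 overlapped with Hk2 and Pgk1.

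Other genes of glucose use, 107 in all, gave no common direction. Of the 82 tested, 4 were higher, 5 lower and 73 did not pass (limma), beside 6.22% higher and 3.28% lower over all genes, with a median log2 fold change of -0.07, beside the -0.01 over all genes. At an unadjusted p under 0.05, 14 were higher and 17 lower, beside the 33.8% of all genes in either direction. Without 1 library at a time, 0 or 1 were called higher (Aldoc, without Cnot3 +/+ replicate 2) and 0 lower. Of 14 other glycolytic enzymes, 2 rose and none fell in limma, while the authors' deposited table also marked Ldhb and Pgam2 as significantly lower. Pgam2, the muscle phosphoglycerate mutase gene, was at 27.1 and 33.4 against 42.8 and 62.5 FPKM, without overlap (log2 fold change -0.76, adjusted p = 0.084 by limma; q-value 0.020 in the authors' deposited table). Aldoc, an aldolase best known from brain, was at 32.5 and 34.3 FPKM for Cnot3 fl/fl against 12.2 and 14.8 FPKM for Cnot3 +/+ libraries, a 2.48-fold rise (log2 fold change 1.25, standard error 0.11, adjusted p = 0.024 by limma; q-value 0.0022 in the authors' deposited table). Eno3 was at 24.4 and 24.4 against 17.8 and 18.0 FPKM (log2 fold change 0.43, adjusted p = 0.042 by limma; q-value 0.28 in the authors' deposited table). The main aldolase Aldoa, at 113 to 143 FPKM, did not pass, with a log2 fold change of 0.21 (adjusted p = 0.20 by limma).

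**Figure D4:**
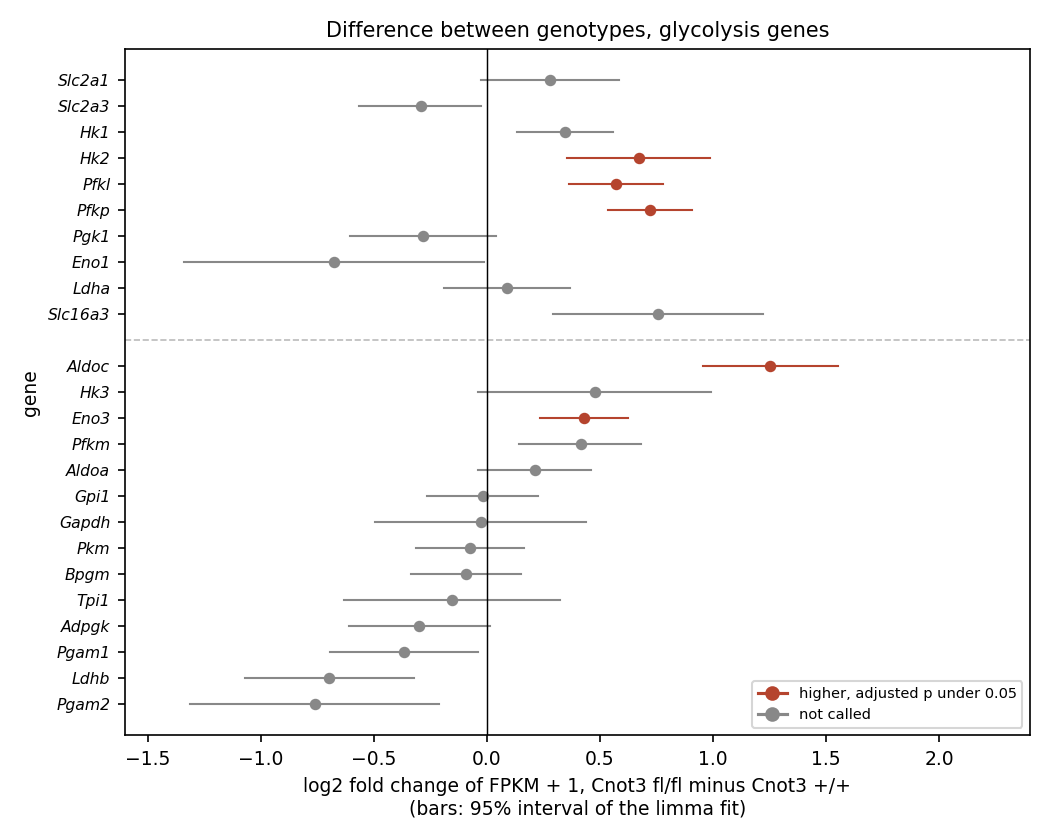
Log2 fold change of FPKM + 1 between genotypes with its 95% interval (limma, 2 libraries per genotype) for the 10 genes (above the dashed line) and 14 other glycolytic enzymes (below it). The called genes, in red, are Hk2, Pfkl, Pfkp, Aldoc and Eno3, and no gene shown was called lower by limma.

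The pentose phosphate pathway, which branches off after hexokinase, changed in both directions. Its entry enzyme gene G6pdx rose from 25.0 ± 1.71 to 38.4 ± 1.47 FPKM and Rpia, the ribose 5-phosphate isomerase gene, fell from 47.8 ± 3.82 to 29.9 ± 0.232 FPKM (SD, n = 2 per genotype; log2 fold changes 0.60 and -0.66, adjusted p = 0.039 and 0.036 by limma). In the authors' deposited table their q-values were 0.21 and 0.031. The other 5 genes did not pass, among them Pgd, which follows G6pdx, at 0.37 (adjusted p = 0.051). No gene passed in limma among 3 other hexose transporters, 5 enzymes that make or break fructose bisphosphate signals for phosphofructokinase, 12 genes of pyruvate entry into mitochondria and 3 of gluconeogenesis. The lowest p in those lists belonged to Slc2a9, a urate and hexose carrier, Pfkfb4, whose product raises phosphofructokinase activity, Pdk2, a kinase that restrains pyruvate oxidation, and Pck2, at 0.66, 0.49, 0.73 and -0.17 on the log2 scale (adjusted p = 0.075, 0.051, 0.051 and 0.35 by limma). The authors' deposited table marked Pdk2 as significantly higher (q-value 0.023), and its q-values for Slc2a9, Pfkfb4 and Pck2 were 0.062, 0.14 and 0.7. The pyruvate carrier gene Mpc1 had -0.52 (adjusted p = 0.11 by limma).

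Among 23 regulators of glucose use tested, none rose, and Egln1 and Stk11 were among those that fell. Egln1, the oxygen sensor that marks HIF for destruction, fell from 26.6 ± 0.874 to 17.2 ± 1.87 FPKM (SD, n = 2 per genotype; log2 fold change -0.60, adjusted p = 0.042 by limma; q-value 0.038 in the authors' deposited table). Stk11, the kinase that activates AMPK, fell from 105 ± 0.403 to 78.9 ± 0.402 FPKM (SD, n = 2 per genotype; log2 fold change -0.41, adjusted p = 0.042 by limma; q-value 0.27 in the authors' deposited table). Hif1a itself was at 38.5 and 36.8 against 32.6 and 30.9 FPKM (log2 fold change 0.24, adjusted p = 0.11 by limma), and Myc at 17.5 and 20.7 against 16.5 and 29.4 FPKM, overlapping between the genotypes. Of 11 hypoxia-inducible genes outside glycolysis, Ndrg1 rose from 12.6 ± 0.576 to 26.8 ± 0.291 FPKM (SD, n = 2 per genotype; log2 fold change 1.04, adjusted p = 0.020 by limma; q-value 0.0022 in the authors' deposited table) and 10 did not pass. Ero1l and P4ha1 had log2 fold changes of -0.42 and -0.30, Vegfa stood at 3.81 and 3.56 FPKM against 5.88 and 11.6 FPKM (adjusted p = 0.10 by limma), and the list's median was -0.004.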

How the data were processed

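RNA of 4 libraries was analysed, grouped by the genotype and replicate number in the sample labels. Libraries were made with a stranded mRNA kit and 15 PCR cycles, per the labels' protocols. The authors deposited an FPKM value per gene and library, per the file headers, and a comparison of the genotypes with each gene's p-value and q-value. Build mm9 and the tools Cuffnorm 2.2.1, Cufflinks 2.2.1, TopHat2 2.0.13 and Bowtie2 2.2.3.0 are named in the submitters' processing notes. For annotation, filters, strand use and scaling nothing is given in the sources used here.

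Values were transformed to log2(FPKM + 1), which understates changes of low genes. The 11017 of 23312 genes whose mean reached 1 FPKM were fitted with limma 3.58.1 in R 4.3.3 (eBayes with trend, genotype as the only term, two-sided, Benjamini-Hochberg over all of them, threshold 0.05), with 2 residual and 2.69 prior degrees of freedom. FPKM values allow no count test. Intervals are limma's at 95%. Transcripts were compared with BLAST 2.17.0. Alternatives were other pseudocounts, filters, scalings and variance models, a replicate block and leaving out each library.

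The genes and lists were chosen with earlier results of these data known. All 10 genes are named, with every called gene and up to 3 of lowest p in each other list, of which some are given only in counts or are not reported here. Hif1a, Myc, Vegfa, Aldoa, Pfkm, Hk3, Pgam2, Gpi1, Pkm and Ddit4 lie outside this rule and were chosen after their values were seen.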

Additional observations from a re-analysis of the deposited data

How the results depend on the processing

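The 3 calls among the 10 genes held with a pseudocount of 0.1 or 5, quantile normalization and median-ratio scaling, and no setting called any of the 10 lower. With no filter on low values, which tests 16296 genes, 0 of the 10 were called higher, as were 0 of the other genes of glucose use in either direction, and over all genes 4 were higher and 1 lower. Without the trend in eBayes the counts were 1 of the 10, 2 other genes of glucose use higher and 0 lower, and 242 and 69 of all genes. With a minimum mean of 5 FPKM, which leaves out Hk2, and with robust eBayes, 7 other genes of glucose use were higher and 6 lower in each. Robust eBayes called 4 of the 10 higher. Over all genes, the 5 FPKM minimum called 645 of 8539 higher and 399 lower. Robust eBayes called 914 higher and 515 lower, beside 685 and 361 in the main fit. The cause of these shifts was not tested. Leaving out each library in turn gave 0 to 0 of the 10 genes higher, 0 to 1 other genes of glucose use higher and 0 to 0 lower, and 2 to 34 of all genes higher and 0 to 20 lower, with 1 residual degree of freedom. The sign of Ldha reversed without Cnot3 +/+ replicate 1 (log2 fold change -0.015, in a range of -0.015 to 0.195 over the libraries left out).

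The replicate numbers are not said to mark a shared source. With the number as a replicate block, 2 of the 10 genes (Pfkl and Pfkp) were called higher and 0 lower. Of the other genes of glucose use, 3 were then higher and 2 lower, and of all genes 456 were higher and 270 lower. Deviations of same-numbered libraries from their genotype's mean had r = 0.14 across genes. Without 1 library at a time the difference in isoform share, Cnot3 fl/fl minus Cnot3 +/+, ranged from 6.74 to 9.91 percentage points for Slc2a1, 2.15 to 3.96 for Hk2, 2.4 to 3.57 for Pfkp, 8.23 to 11.67 for Ldha, 31.07 to 54.06 for Slc16a3 and -12.17 to -5.16 for Eno1. With 2 libraries per genotype and no counts, the depth behind low genes such as Slc16a3 is unknown.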

Other observations

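The authors' deposited table marked 11 of the 107 other genes of glucose use as significant, 4 higher and 7 lower, with some of the 107 untested there. Over its 12154 tested genes it marked 4.08% as higher and 2.51% as lower. Of the 11, limma called 4 and did not call or test 7. Among the latter, Slc16a1 was at 2.86 FPKM in Cnot3 +/+ replicate 1 and 8.73 FPKM in replicate 2, and Vegfa at 5.88 and 11.6 FPKM. In the same 2 libraries the markers of dividing cells summed to 78.0 and 216 FPKM, whose part in these values was not tested. Ddit4, a stress-induced inhibitor of mTOR signalling, was at 47.9 and 108 FPKM for Cnot3 fl/fl replicates 1 and 2 and at 38.5 and 52.5 FPKM in Cnot3 +/+ libraries, with a q-value of 0.0022 in the authors' deposited table and a limma adjusted p of 0.31.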
